A study of Mus musculus with 6 samples.

Results

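The erythroid miRNAs miR-451a, miR-144 and miR-486 are described here as measured in mouse myocardium after death. They were taken by name, which gave 7 of the 984 mature miRNAs counted: mmu-miR-451a, mmu-miR-144-5p, mmu-miR-144-3p, mmu-miR-486a-5p, mmu-miR-486a-3p, mmu-miR-486b-5p and mmu-miR-486b-3p. All 7 passed the filter on low values and were among the 470 miRNAs tested. Small RNA libraries were made from total RNA of myocardial tissue, 3 sampled 6 d after death and 3 at a post-mortem interval (the time between death and sampling) of 0 h. The series title gives estimation of that interval as the subject. The labels name no strain, genotype, sex, age, treatment, cause of death or storage condition for either group. Whether each library stands for its own animal is not said, so p-values here cover only the variation among the libraries, part or all of which may be technical.

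Red blood cells of mammals lose their nucleus but carry a large pool of mature miRNAs made during erythroid maturation. The hairpins of miR-144 and miR-451a are cut from a shared primary transcript that the erythroid factor GATA1 activates. miR-451a is unusual in that its short hairpin bypasses Dicer: Argonaute 2 slices it, and the product is trimmed to the mature end. miR-144 is matured by Dicer in the usual way. miR-486 comes from an intron of Ank1, the gene of a red cell membrane protein, and is also made in skeletal and heart muscle. In mouse erythroid cells Argonaute 2 also slices the passenger strand of miR-486, the 3p arm.

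The sequences below show the different layout of the clustered hairpins. They are RefSeq entries on build GRCm38.p6, found for 3 of the 7 miRNAs. miR-486a and miR-486b are named only. In the mature sequences the capitals mark the seed, bases 2 to 8, which pairs with target mRNAs.
miR-451a: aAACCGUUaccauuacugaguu
miR-144-5p: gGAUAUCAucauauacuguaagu
miR-144-3p: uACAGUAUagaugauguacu
In the hairpins the capitals mark the mature miRNAs.
Mir451a hairpin: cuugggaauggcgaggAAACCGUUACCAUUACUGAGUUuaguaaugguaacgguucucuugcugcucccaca
Mir144 hairpin: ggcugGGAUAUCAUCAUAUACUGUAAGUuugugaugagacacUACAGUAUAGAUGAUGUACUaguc
The mature miR-451a occupies bases 17 to 38 of its 72-base hairpin, so it runs past the middle of the hairpin and leaves no separate 3p arm. The miR-144 arms occupy bases 6 to 28 and 43 to 62 of a 66-base hairpin, on either side of the loop. RefSeq places the miR-144 hairpin at chr11:78073005-78073070 and the miR-451a hairpin at chr11:78073170-78073241, both on the plus strand, with 99 bases between them. None of the other mature mouse miRNAs in a table of 1679 names has the 7-base seed of miR-451a, miR-144-5p or miR-144-3p. Only miR-101a-3p shares bases 2 to 7 with miR-144-3p.

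The 6 d libraries held 1889594, 699670 and 617069 miRNA reads, against 4468547, 7906555 and 7299596 in the 0 h libraries. Levels are given as normalised CPM, the reads per 1000000 miRNA reads after a further scaling factor per library. These factors were 0.831, 1.08 and 1.80 at 6 d and 0.919, 0.760 and 0.887 at 0 h. For 5 libraries they come from the authors' scaled values, but the authors do not state the 0.919 of 0 h replicate 1, which was derived by making the 6 factors multiply to 1. Shares of reads and normalised CPM therefore do not run in parallel. Mature miRNAs are captured whole, so no length correction applies. Ligation efficiency depends on sequence, however, so the order of levels between miRNAs is an order of reads and not of molecules. The muscle miRNA miR-1a-3p, which marks heart tissue, took 32.5% ± 12.3 of the reads at 6 d and 28.9% ± 7.52 at 0 h (SD, n = 3 each). In normalised CPM its log2 fold change was -0.33 (limma adjusted p = 0.67), but the other 3 of 4 heart muscle miRNAs examined were called, in both directions. miR-133a-3p rose (1.43, limma adjusted p = 0.0069), while miR-499-5p (-1.48, limma adjusted p = 0.013) and miR-208a-3p (-1.49, limma adjusted p = 0.024) fell. When reads were scaled by totals alone, neither miR-499-5p (-1.02) nor miR-208a-3p (-1.04) was called, nor were they after thinning with TMM factors recomputed on the rows that filterByExpr keeps (-1.07 and -1.04). The call of miR-208a-3p was also lost after thinning with TMM factors recomputed on all rows (-1.07), by DESeq2 (-1.14), and without 6 d replicate 2 (-1.22), 6 d replicate 3 (-1.27), 0 h replicate 1 (-1.55) or 0 h replicate 3 (-1.29). All values are relative to the other miRNAs of a library.

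miR-451a rose at 6 d, while the 5p arms of miR-486 and the arms of miR-144 were not past the threshold. The 3p arms of miR-486 fell, but neither was past the threshold with scaling by library totals alone. The fall of miR-486b-3p rests on 1, 3 and 4 reads at 6 d. A miRNA was called at a limma adjusted p under 0.05, with the adjustment over all 470. With 3 of the 7 called, 1 higher and 2 lower, the share is close to the 37.9% called among all tested miRNAs (16.0% higher, 21.9% lower). edgeR's quasi-likelihood test on whole reads called the same number of the 7 in each direction, against 43.0% of the miRNAs it tested. The median log2 fold change of the 7 was -0.27, and that of all tested was -0.33. For 3 of the 7 the libraries of the groups did not overlap, against 50.6% of all tested. The counts for the 7 lie near or below the background, so the results are given for each member.

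**Figure D1:**
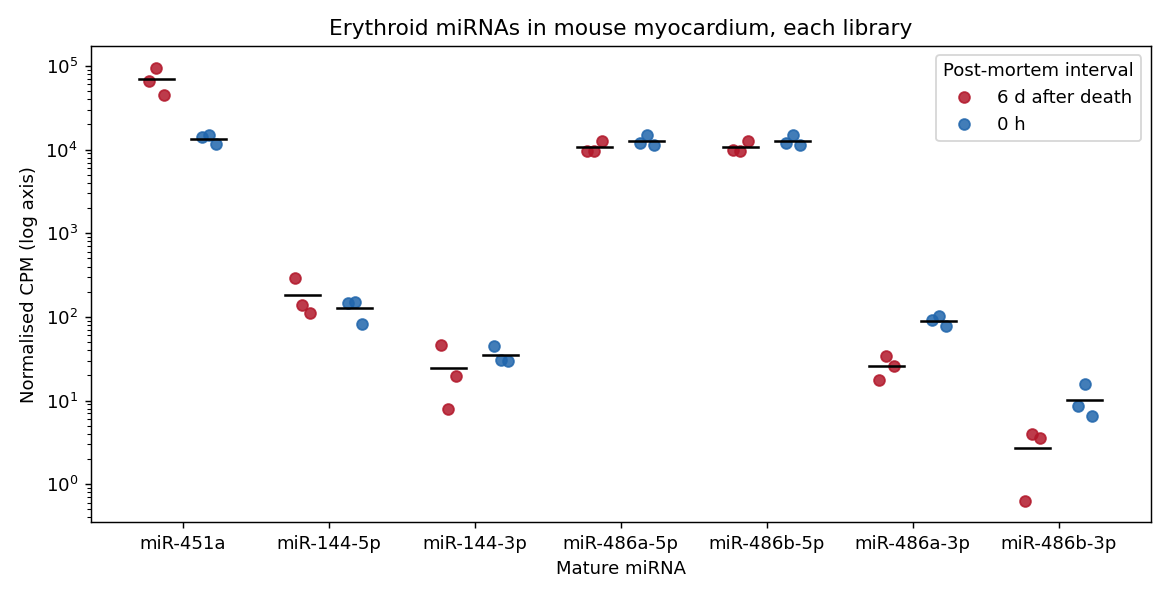
Level of each of the 7 miRNAs in normalised CPM (log axis) in the 3 libraries at 6 d (red, left) and the 3 at 0 h (blue, right), with black lines at the means. miR-451a lies at 45135 to 95485 at 6 d and at 11544 to 15096 at 0 h, while the miR-486 5p rows overlap between the groups and the miR-486 3p rows are lower at 6 d.

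miR-451a had 66866, 95485 and 45135 normalised CPM in the 6 d libraries, against 13938, 15096 and 11544 in the 0 h libraries. Every 6 d library lay above every 0 h library. Its log2 fold change was 2.30 ± 0.35 (SE, n = 3 each, limma adjusted p = 0.0011), a fold of 4.91. The share of all miRNA reads was 5.56%, 10.3% and 8.11% at 6 d and 1.28%, 1.15% and 1.02% at 0 h. For the 6 d library with the fewest reads, replicate 3, the 95% Wilson interval of this share was 8.04% to 8.17%, so counting error is small beside the spread between libraries. miR-451a was the 4th, 3rd and 3rd most abundant miRNA in the 6 d libraries and the 13th in each 0 h library. In bulk tissue a larger share of red cells and more miR-451a per cell cannot be told apart, nor can either be told apart from a loss of other miRNAs. The rise was called under each of 21 alternatives of scaling, filter, test or left-out library, with log2 fold changes between 2.03 and 2.76. By fold change 29 tested miRNAs ranked above it, and 29 of these had a lower mean level, as the plot against mean level shows.

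**Figure D2:**
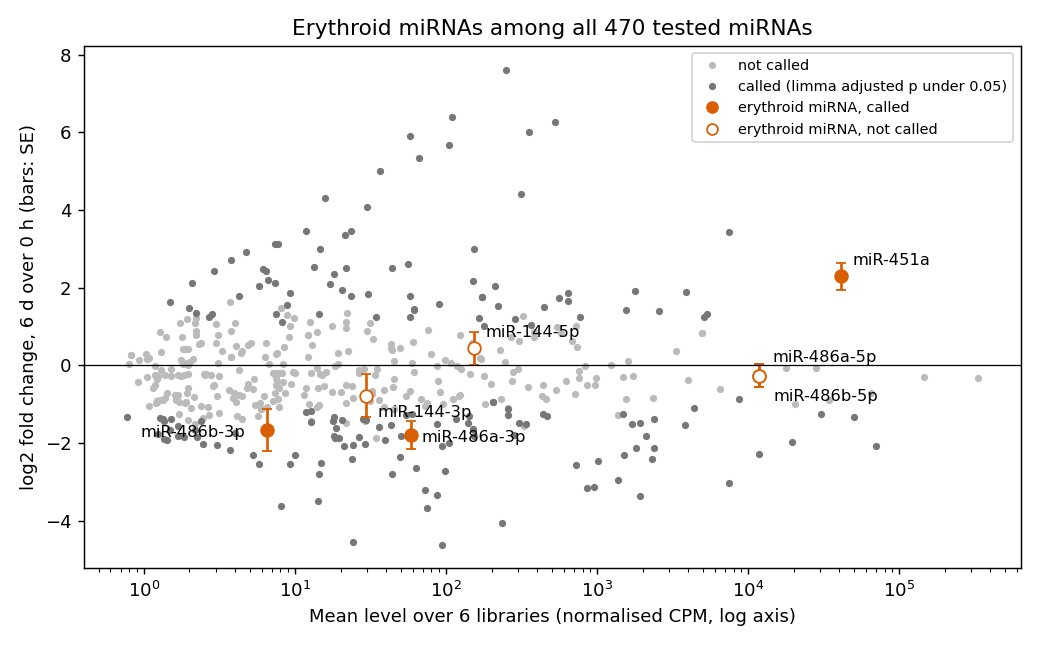
Log2 fold change of 6 d over 0 h for all 470 tested miRNAs against their mean level over the 6 libraries (normalised CPM, log axis). The 7 erythroid miRNAs are in orange with SE bars, filled where called: miR-451a lies at 2.30 and the miR-486 3p rows at -1.79 and -1.66.

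miR-144 is encoded next to miR-451a, and its level did not pass the threshold in either arm. The 5p arm had 292, 140 and 112 normalised CPM at 6 d, against 147, 150 and 82.6 at 0 h. The groups overlap, with 6 d replicate 1 the highest library. The log2 fold change of miR-144-5p was 0.44 ± 0.43 (SE, n = 3 each, limma adjusted p = 0.44). It was 0.037 without 6 d replicate 1, 0.16 without 0 h replicate 3 and 0.73 without 6 d replicate 3. As a share of all reads miR-144-5p did not overlap between the groups, at 0.0243%, 0.0152% and 0.0201% at 6 d and 0.0135%, 0.0114% and 0.00733% at 0 h, but with scaling by library totals alone it was not called either (log2 fold change 0.90, limma adjusted p = 0.15).

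The 3p arm of miR-144, which represses the antioxidant regulator Nrf2 in human erythroid cells, had 45.8, 7.94 and 19.9 normalised CPM at 6 d, against 44.5, 30.6 and 29.3 at 0 h. These levels rest on 72, 6 and 22 reads at 6 d and on 183, 184 and 190 reads at 0 h. The 6 d libraries range over the whole span of the 0 h libraries and below it. The log2 fold change of miR-144-3p was -0.77 ± 0.56 (SE, n = 3 each, limma adjusted p = 0.30). Without 6 d replicate 1 it was -1.37 and called (limma adjusted p = 0.046), and without 6 d replicate 2 it was -0.17 (limma adjusted p = 0.80). miR-101a-3p, which shares bases 2 to 7 of the miR-144-3p seed, had 1807, 684 and 308 normalised CPM at 6 d, against 1713, 2440 and 1270 at 0 h. The log2 fold change was -1.27 ± 0.58 (SE, n = 3 each, limma adjusted p = 0.12).

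The 5p arm of miR-486, which represses the factor Foxo1 in muscle, was as abundant as miR-451a at 0 h. miR-486a-5p had 9741, 9560 and 12511 normalised CPM at 6 d, against 11997, 14971 and 11385 at 0 h. The groups overlap, with 6 d replicate 3 above 2 of the 0 h libraries. Its log2 fold change was -0.27 ± 0.30 (SE, n = 3 each, limma adjusted p = 0.49). With scaling by library totals alone the sign turned (0.19, limma adjusted p = 0.80), as it did with thinning to equal depth and recomputed TMM factors (0.12, limma adjusted p = 0.82), so no direction is given. The share of reads was 0.810%, 1.03% and 2.25% at 6 d, against 1.10%, 1.14% and 1.01% at 0 h, which leaves 6 d replicate 3 apart from the other libraries.

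The miR-486a and miR-486b rows are not independent. The reads of miR-486b-5p exceeded those of miR-486a-5p by 11 to 29 in the 6 d libraries and by 52 to 102 in the 0 h libraries, at most 0.346% of the miR-486a-5p reads. The fold change of miR-486b-5p was accordingly the same to 2 decimals (-0.27, limma adjusted p = 0.50). The 3p rows did differ: miR-486b-3p had 3.57%, 11.5% and 13.8% of the reads of miR-486a-3p at 6 d and 9.38%, 15.2% and 8.37% at 0 h. The values of these paired rows are therefore uncertain as to locus.

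The 3p arms of miR-486 fell. miR-486a-3p had 17.8, 34.4 and 26.2 normalised CPM at 6 d, against 90.8, 103 and 77.5 at 0 h. All 3 libraries at 6 d lay below all 3 at 0 h. The log2 fold change was -1.79 ± 0.36 (SE, n = 3 each, limma adjusted p = 0.0041), on 28, 26 and 29 reads at 6 d and 373, 617 and 502 at 0 h. With library totals alone it was -1.34 and not called (limma adjusted p = 0.074). miR-486b-3p had 0.637, 3.97 and 3.61 normalised CPM at 6 d, against 8.52, 15.6 and 6.48 at 0 h, again without overlap. In share of reads miR-486b-3p did overlap, at 0.000648% in 6 d replicate 3 and 0.000575% in 0 h replicate 3. Its 6 d values rest on 1, 3 and 4 reads and its 0 h values on 35, 94 and 42, so the size of the change is uncertain. The log2 fold change was -1.66 ± 0.55 (SE, n = 3 each, limma adjusted p = 0.036), and -0.96 with a pseudocount of 5 (limma adjusted p = 0.030). This call was lost without 6 d replicate 1 (-1.14, limma adjusted p = 0.093), without 0 h replicate 1 (-1.74, limma adjusted p = 0.086) and without 0 h replicate 2 (-1.33, limma adjusted p = 0.16).

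The ratio of the arms of a precursor does not depend on library scaling. With 1 read added to each arm, miR-486a-5p stood at 528, 268 and 462 times miR-486a-3p at 6 d, against 132, 146 and 147 times at 0 h. The 0 h libraries were close to each other and all below the 6 d libraries. The log2 ratio of 5p to 3p differed by 1.51 ± 0.48 (SE, n = 3 each, limma adjusted p = 0.037), in a comparison that called 37.9% of 116 precursors (19.0% toward the 5p arm). The 44 precursors called became 21 without 0 h replicate 1, 25 without 0 h replicate 2 and 27 without 0 h replicate 3. The call was lost when any of 5 libraries was left out, with log2 differences of 1.32 without 6 d replicate 1, 1.41 without 6 d replicate 3, 1.46 without 0 h replicate 1, 1.53 without 0 h replicate 2 and 1.54 without 0 h replicate 3 (limma adjusted p between 0.070 and 0.16). It was also lost after thinning to equal depth (1.46, limma adjusted p = 0.068). The log2 ratio for miR-486b, at 1.37 ± 0.63, was not past the threshold (SE, n = 3 each, limma adjusted p = 0.11), nor was that for miR-144, at 1.18 ± 0.58 (limma adjusted p = 0.13). The value for miR-486b was 0.34 with 5 reads added and 0.78 without 6 d replicate 1, and that for miR-144 was 0.72 without 6 d replicate 2. For miR-144 the 5p arm had 6.30, 15.3 and 5.43 times the 3p reads at 6 d and 3.28, 4.88 and 2.81 times at 0 h, without overlap.

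**Figure D3:**
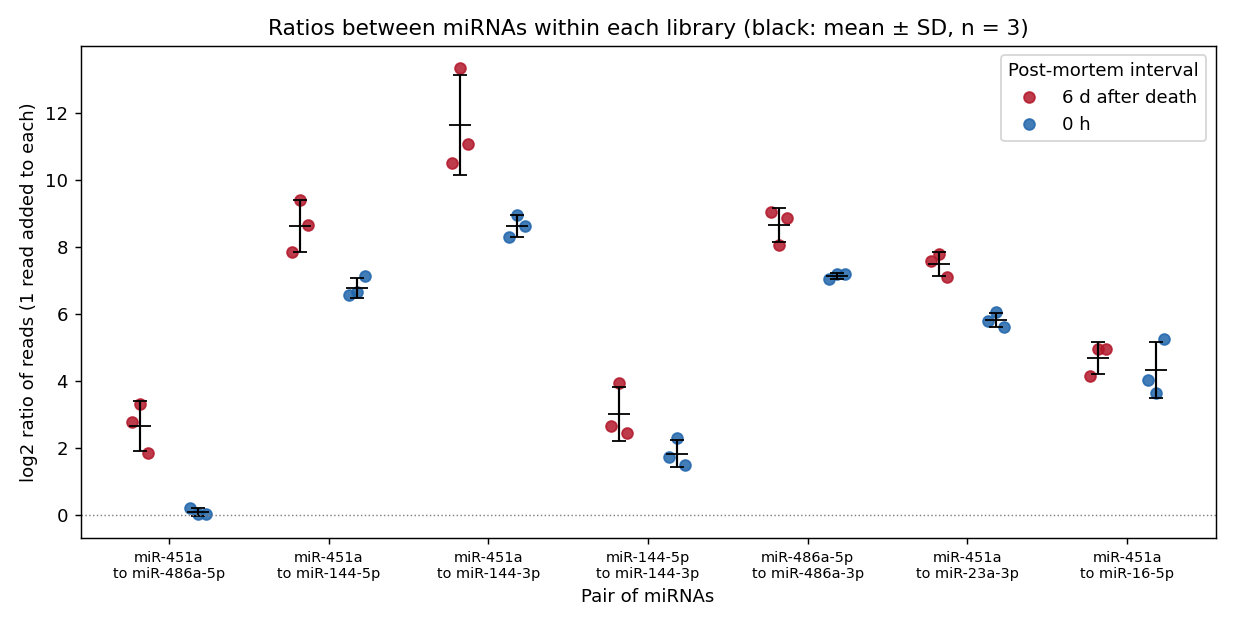
Log2 ratio of reads between pairs of miRNAs within each library, at 6 d (red, left) and 0 h (blue, right), with the mean and SD (n = 3) in black. The ratio of miR-451a to miR-486a-5p is near 0 in the 0 h libraries (0.01 to 0.22) and lies between 1.85 and 3.32 at 6 d, while the ratio of miR-451a to miR-16-5p overlaps between the groups.

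The members were also compared with each other within libraries. miR-451a and miR-486a-5p had nearly equal reads at 0 h, and miR-451a was several times higher at 6 d. The ratio of miR-451a to miR-486a-5p was 6.86, 9.99 and 3.61 at 6 d, against 1.16, 1.01 and 1.01 at 0 h. The log2 ratio was 2.65 ± 0.74 at 6 d and 0.08 ± 0.12 at 0 h (SD, n = 3 each), a difference of 2.57 or 5.93-fold. Its two-sided exact permutation p was 0.1, the lowest value this design can give, or 0.15 when adjusted over the 6 ratios compared. A limma fit of every tested miRNA relative to miR-486a-5p, chosen after seeing the data, gave the same difference with an SE of 0.50 (limma adjusted p = 0.00014), where 18.2% of miRNAs were called higher. The difference lay between 2.23 and 2.97 when any 1 library was left out, and this fit called it each time. Every row of such a fit carries the noise of the reference miRNA, so the rows are not independent. Its p-values may therefore be too small for 3 libraries per group, which the permutation p is not. Counting miR-486 once, miR-451a made up 86.9%, 90.7% and 78.0% of the reads of the erythroid miRNAs at 6 d, against 53.1%, 49.7% and 49.9% at 0 h.

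The clustered pair differed as well. The ratio of miR-451a to miR-144-3p was 1439, 10306 and 2175 at 6 d, against 311, 491 and 391 at 0 h. The groups did not overlap, and 6 d replicate 2, with 6 reads of miR-144-3p, was the highest. The log2 ratio differed by 3.03 (two-sided exact permutation p = 0.1, adjusted 0.15), and by 2.18 without 6 d replicate 2. Relative to miR-144-5p the ratio of miR-451a was 228, 674 and 400 at 6 d and 94.8, 100 and 139 at 0 h, a log2 difference of 1.84. In a limma fit of every tested miRNA relative to miR-451a, also chosen after seeing the data, the differences were 3.07 ± 0.68 for miR-144-3p and 1.85 ± 0.52 for miR-144-5p (SE, n = 3 each, limma adjusted p = 0.00047 and 0.0030). This fit called 81.4% of miRNAs lower relative to miR-451a, so these calls single out neither arm. Its rows share the noise of miR-451a, so its p-values may also be too small. Both arms of miR-144 together made up 0.503%, 0.155% and 0.291% of the reads of miR-144 and miR-451a at 6 d, against 1.35%, 1.18% and 0.960% at 0 h.

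The ratio of miR-144-3p to miR-486a-5p differed by less than the spread between libraries. The log2 ratio was -8.99 ± 1.17 at 6 d and -8.53 ± 0.43 at 0 h (SD, n = 3 each, two-sided exact permutation p = 0.6, adjusted 0.6). Its difference was -0.46 with all libraries, 0.054 without 6 d replicate 2 and -1.10 at the other end of the range with 1 library left out.

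miR-451a was also set against miRNAs outside the erythroid group. Its ratio to miR-23a-3p, a pair used in serum and plasma as an index of haemolysis because red cells hold much miR-451a and little miR-23a, was 189, 222 and 138 at 6 d, against 55.6, 66.3 and 48.8 at 0 h. The groups did not overlap, with a log2 difference of 1.67 (two-sided exact permutation p = 0.1, adjusted 0.15, 1.67 ± 0.48 in the fit relative to miR-451a, SE, limma adjusted p = 0.0037). As that fit called 81.4% of miRNAs lower relative to miR-451a, its calls single out neither miR-23a-3p nor the heart miRNAs below. Relative to the heart miRNA miR-1a-3p the log2 difference was 2.63 (two-sided exact permutation p = 0.1, adjusted 0.15), with ratios of 0.126, 0.308 and 0.410 at 6 d and 0.0471, 0.0309 and 0.0459 at 0 h. This difference depends on the heart miRNA taken: in the fit relative to miR-451a, where a negative value means that the heart miRNA was lower against miR-451a at 6 d, it was -2.63 for miR-1a-3p, -3.78 for miR-499-5p, -3.79 for miR-208a-3p and -0.87 for miR-133a-3p, the last not past the threshold (limma adjusted p = 0.11). Relative to miR-16-5p, another abundant red cell miRNA, the ratios were 17.6, 30.9 and 31.1 at 6 d and 16.4, 12.5 and 38.2 at 0 h. These overlap, and the log2 difference was 0.37 (two-sided exact permutation p = 0.6, adjusted 0.6). It was 0.036 without 0 h replicate 2 and 0.84 without 0 h replicate 3, the ends of the range with 1 library left out, and also moved to 0.64 without 6 d replicate 1 and to between 0.23 and 0.24 without any of the other 3 libraries.

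Taken as a sum, the 7 rows held 7.21%, 12.4% and 12.6% of the miRNA reads at 6 d, against 3.52%, 3.45% and 3.06% at 0 h. The difference of 7.41 percentage points had a two-sided exact permutation p of 0.1. These sums count the reads shared by the miR-486a and miR-486b rows in both rows. With the larger of the miR-486a and miR-486b rows taken for each arm, the shares were 6.45%, 11.5% and 10.6% at 6 d. At 0 h they were 2.44%, 2.33% and 2.07%, and the difference was 7.24 percentage points. miR-451a alone accounted for 7.99% ± 2.38 at 6 d and 1.15% ± 0.13 at 0 h (SD, n = 3 each).

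Of 10 other miRNAs abundant in red blood cells, chosen with earlier results of these data known, 6 rose and 0 fell (median log2 fold change 1.26, against -0.33 over all tested and a background of 16.0% called higher). By edgeR's quasi-likelihood test 7 rose and 0 fell, against 22.3% of miRNAs called higher. By limma 5 rose without 6 d replicate 1, 6 d replicate 2, 0 h replicate 1 or 0 h replicate 3, and 7 without 6 d replicate 3. The list is drawn mostly from the miR-15/16 and miR-17-92 families, which many other cell types also express, and all 10 had reads in every library. miR-25-3p, the most abundant, had 7967, 8682 and 6281 normalised CPM at 6 d, against 2747, 3518 and 2867 at 0 h (log2 fold change 1.32 ± 0.30, SE, n = 3 each, limma adjusted p = 0.0076). miR-16-5p, which represses cell cycle genes, had 3792, 3088 and 1451 at 6 d, against 848, 1205 and 302 at 0 h (log2 fold change 1.93 ± 0.55, SE, limma adjusted p = 0.022). Its call was lost without 6 d replicate 1 (1.65, limma adjusted p = 0.063), 6 d replicate 2 (1.79, 0.074) or 0 h replicate 3 (1.35, 0.052). miR-93-5p averaged 1006 ± 378 normalised CPM at 6 d and 270 ± 63.7 at 0 h (SD, n = 3 each, log2 fold change 1.86 ± 0.36, SE, limma adjusted p = 0.0035). The 4th by level, miR-20a-5p, averaged 517 ± 474 normalised CPM at 6 d and 244 ± 59.7 at 0 h (SD, n = 3 each, log2 fold change 0.73, not past the threshold). These 4 and the other 6 lie between 0.07 and 2.51 on the log2 scale, while the members other than miR-451a lie between -1.79 and 0.44.

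**Figure D4:**
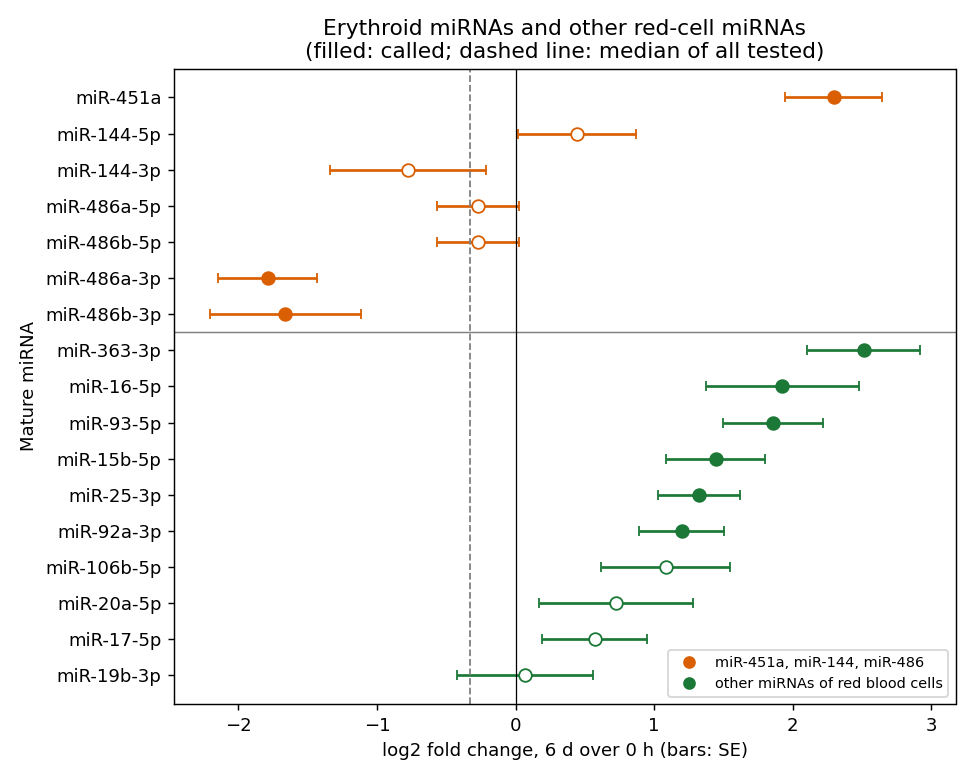
Log2 fold change of 6 d over 0 h with SE bars for the 7 erythroid miRNAs (orange) and 10 other miRNAs abundant in red blood cells (green), filled where called, with a dashed line at the median of all tested miRNAs (-0.33). miR-451a, at 2.30, lies within the range of the green miRNAs (0.07 to 2.51), as does miR-144-5p at 0.44, and the other 5 orange rows lie below it.

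Of 5 miRNAs known to fall in erythroid maturation, 1 rose and 0 fell by limma, and 2 rose and 0 fell by edgeR, against 16.0% and 22.3% called higher among all tested, so the limma count is near its background. The one that rose by limma was miR-222-3p, which represses the receptor KIT in human erythroid progenitors (log2 fold change 1.25 ± 0.32, SE, n = 3 each, limma adjusted p = 0.013), while its cluster partner miR-221-3p was at -0.10. Markers of other cells moved between the groups too, and their part in the results above was not tested. Of 5 leukocyte miRNAs 0 were called by limma, with 3 higher at an unadjusted p under 0.05, and edgeR called 2 higher, miR-142a-5p and miR-223-3p, against 22.3% of all it tested. Of these 5, miR-155-5p, miR-223-3p and miR-150-5p are also among the 5 miRNAs that fall in erythroid maturation. By limma, in log2 fold change, miR-142a-5p was at 1.27, miR-223-3p at 1.35, miR-155-5p at 0.91, miR-142a-3p at 0.16 and miR-150-5p at -0.79. Without 6 d replicate 3 miR-150-5p was called lower (-1.32, limma adjusted p = 0.021). Other scalings raised the limma count. With RLE factors miR-142a-5p and miR-223-3p were called higher (limma adjusted p = 0.043 and 0.045). With library totals alone miR-142a-5p and miR-155-5p were (limma adjusted p = 0.030 and 0.029). DESeq2 called miR-142a-5p, miR-223-3p and miR-155-5p higher. The summed level of the 5 was 655 to 1164 normalised CPM at 6 d and 471 to 627 at 0 h. The liver miRNA miR-122-5p had 2086, 23460 and 16716 at 6 d, against 702, 668 and 1406 at 0 h (log2 fold change 3.42 ± 0.80, SE, limma adjusted p = 0.0095), and no marker of these lists was at 0 in any library. The endothelial pair of miR-126a arms summed to 25279 to 35076 normalised CPM at 6 d and 56921 to 88648 at 0 h, and 1 of these 2 arms, miR-126a-3p, fell (-1.33, limma adjusted p = 0.0095), a call lost with library totals alone (-0.87, limma adjusted p = 0.11).

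The miRNAs whose pattern over the 6 libraries was most like that of a member were sought among 269 tested miRNAs with a mean of at least 10 normalised CPM, by the root mean square difference of log2 values centred on their means. For miR-451a these were miR-200c-3p (0.33), miR-421-3p (0.33) and miR-133b-3p (0.40). miR-200c-3p averaged 245 ± 34.2 normalised CPM at 6 d and 55.3 ± 19.8 at 0 h (SD, n = 3 each). For miR-144-3p they were miR-140-5p (0.45), miR-10a-5p (0.47) and miR-143-5p (0.49), which shared with it a 6 d replicate 1 above the other 6 d libraries. For miR-486a-5p they were miR-92b-3p (0.17), miR-339-5p (0.18) and let-7b-5p (0.22), with log2 fold changes of -0.16, -0.06 and -0.30, none past the threshold. miR-144-3p had the most distant nearest neighbours, and its levels rest on the fewest reads of the 3 members compared.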

How the data were processed

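Reads of 984 mature miRNAs were deposited for 6 libraries of mouse myocardium. Trizol extraction and a NEBNext small RNA kit were used, per the labels' protocols. The tools named, per the submitters' processing notes, are STAR 2.5.3a, cutadapt 2.8, Trimmomatic 0.39 and FastQC. Genome build, miRNA annotation and counting tool: not given in the sources used here. Each file also ends in 1604 blank rows, which were dropped.

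For 0 h replicate 1 the authors deposited raw counts, and for the other 5 libraries log2 values of scaled reads plus 1. In those 5, 2692 of 2692 nonzero values that could be tested were whole multiples of the value of 1 read, within a rounding of 0.0005 on the log2 scale. The value of 1 read was itself estimated per library from these values, as the one that made most of them whole. Whole reads were thus recovered, and 418 of 3110 nonzero values were too large to test. The counts of 0 h replicate 1 were put on the same scale with a factor of 0.919, which makes the 6 library factors multiply to 1. The authors do not state this factor. A floor of 3 reads is 1.91 to 3.97 normalised CPM at 6 d and 0.463 to 0.730 at 0 h.

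limma 3.58.1 (trended, robust) was run on log2(normalised CPM + 1) over miRNAs with at least 1 normalised CPM in at least 3 libraries, with Benjamini-Hochberg adjustment over all of them. Fold changes on this scale understate the change of low miRNAs. Arm ratios were fitted the same way over 116 precursors. Ratios and shares were compared with two-sided exact permutation tests. edgeR 4.0.16 and DESeq2 1.42.0 on the recovered reads were alternatives. Libraries of 1 group differed well beyond sampling noise (at least 216 as chi-square over its degrees of freedom), so each library is 1 sample. Without molecular identifiers, intervals and floors describe counting error alone.

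The 7 miRNAs and the lists were chosen with earlier results of these data known. All 7 were named in full, with up to 4 of the most abundant miRNAs of each list and the 3 miRNAs most like each of miR-451a, miR-144-3p and miR-486a-5p. miR-101a-3p, miR-222-3p, miR-221-3p and the leukocyte miRNAs named were singled out after their values were seen.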

Additional observations from a re-analysis of the deposited data

How the results depend on the processing

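Scaling moved the median log2 fold change over the whole set from -0.33 as deposited to -0.17 (RLE) and 0.02 (library totals alone). The calls were 75 higher and 103 lower, then 90 and 84, then 83 and 40. Leaving out 1 library gave 114 to 179 calls in place of 178, the fewest without 0 h replicate 1. With library totals alone miR-486a-5p and miR-486b-5p turned to 0.19 each, and the calls of miR-486a-3p (-1.34) and miR-486b-3p (-1.22) were lost. The call of miR-486b-3p was also lost with RLE factors (-1.48), no filter (-1.66), DESeq2 (-1.79), limma-voom (-1.76) and thinning (-2.01). TMM factors recomputed on the rows that filterByExpr keeps gave 86 higher and 87 lower calls and lost that of miR-486b-3p (-1.51). Thinning with TMM factors recomputed on all rows gave 84 and 46 calls, and on the filterByExpr rows 84 and 40. In these 2 settings miR-486a-5p turned to 0.12 and 0.15, miR-486b-5p to 0.12 and 0.14, and miR-486b-3p, at -1.68 in both, lost its call. miR-486b-3p could not be fitted with a mean of at least 10 normalised CPM or with miR-486a and miR-486b merged. With 1 library left out the log2 fold change ranged from -1.95 to -1.14 for miR-486b-3p and from -1.37 to -0.17 for miR-144-3p, the log2 arm ratio of miR-486a from 1.32 to 1.81, and the log2 ratio of miR-144-3p to miR-486a-5p from -1.10 to 0.054. Thinned, the arm ratio of miR-486a was 1.46. The fits of all miRNAs relative to a member were added after seeing the data, as were all settings with thinning or filterByExpr rows. Against miR-486a-5p, miR-144-3p, miR-23a-3p and miR-1a-3p the log2 ratio of miR-451a differed by 2.57, 3.07, 1.67 and 2.63 in the relative fits. Each was past the threshold, which a permutation of 3 against 3 cannot reach. The rows of such a fit share the noise of the reference miRNA, so its p-values may be too small. These calls therefore do not lift the limit set by 3 libraries per group. The fit relative to miR-451a called 81.4% of miRNAs lower, so its calls do not single out miR-144-3p, miR-23a-3p or miR-1a-3p. Where not stated above, the cause was not tested.

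With the replicate block 195 miRNAs were called, and the arm ratio of miR-486a (1.51) was not (limma adjusted p = 0.10). For libraries that share a number, deviations from the group means had correlations of 0.07, 0.06 and 0.27. As 2 of these are under 0.1, the numbers were not treated as a pairing. The reads of the miR-144 3p arm and of the miR-486 3p arms, 1 to 72 per library at 6 d, limit what can be said of them.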
